A study of Mus musculus with 12 samples.

Results

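The 10 chemokine genes described here are Ccl2, Ccl3, Ccl4, Ccl5, Ccl6, Cxcl1, Cxcl9, Cxcl10, Cxcl12 and Cxcl16. They are 10 of the 57180 genes in the deposited tables, picked by gene symbol with earlier results of these data known. All 10 were among the 19350 genes with enough reads to be tested. Livers of 12 mice were profiled by sequencing of total RNA after removal of ribosomal RNA, with 3 females and 3 males of each genotype, KO and Het, which makes 4 groups of 3. Every mouse in all 4 groups was Csa-/- (Csa is the gene Ercc8, whose protein acts in transcription-coupled DNA repair) and had received the AAV9-CSA vector, a human CSA cDNA under the ubiquitous chicken β-actin promoter, by neonatal injection into the cerebral ventricles. KO mice were taken at the humane endpoint and Het mice are their AAV-treated littermates, euthanized at the same time points. The age of single mice is not given in the sources used here. The sample labels write KO as Csa-/-;Xpa+/+ and Het as Csa-/-;Xpa+/-, whereas the results text of the study describes its diseased mice as lacking Xpa too, so livers were grouped by the names KO and Het. Xpa was at 3.10 to 6.34 CPM in the 6 Het livers and at 0.992 to 1.83 CPM in the 6 KO livers, and the groups did not overlap. CPM is the read count of a gene per 1e+06 counts of the scaled library, and gene counts cannot show which exons of Xpa remain. Reads on Ercc8 stood at 5.10 to 8.68 CPM in Het livers and 14.8 to 34 CPM in KO livers. Each library held between 30044812 and 43634073 counts on genes, and livers of 1 group differed by more than the noise of counting.

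Chemokines are small secreted proteins that direct the movement of leukocytes through G protein-coupled receptors. They are sorted by the spacing of their first cysteines into CC chemokines, in which these residues are adjacent, and CXC chemokines, in which another residue lies between them. In the liver, Kupffer cells, recruited macrophages, endothelial and stellate cells and hepatocytes can all produce them. Ccl2 draws monocytes through Ccr2, Ccl3, Ccl4 and Ccl5 draw monocytes and T cells, and Ccl6 is a rodent CC chemokine of myeloid cells. Cxcl1 draws neutrophils through Cxcr2, Cxcl9 and Cxcl10 are induced by interferon and draw T cells through Cxcr3, Cxcl12 is a homeostatic ligand of Cxcr4 and Ackr3, and Cxcl16 is made as a membrane-bound protein that binds Cxcr6.

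The stretch of coding sequence that sorts the members into the 2 families is shown first for 9 of them, read 5′ to 3′ on the coding strand of GRCm39. The capitals mark the codons of the first cysteine pair, which touch in the CC genes and have 3 bases between them in the 5 CXC genes.
Ccl2, CC, chr11:81927317-81927352, plus strand: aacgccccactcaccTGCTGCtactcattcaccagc
Ccl4, CC, chr11:83554293-83554328, plus strand: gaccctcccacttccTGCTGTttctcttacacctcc
Ccl5, CC, chr11:83420053-83420088, minus strand: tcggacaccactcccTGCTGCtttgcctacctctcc
Ccl6, CC, chr11:83480197-83480232, minus strand: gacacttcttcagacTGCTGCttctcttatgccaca
Cxcl1, CXC, chr5:91039340-91039378, plus strand: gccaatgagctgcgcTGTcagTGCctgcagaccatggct
Cxcl9, CXC, chr5:92474686-92474724, minus strand: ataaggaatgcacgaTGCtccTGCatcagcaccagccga
Cxcl10, CXC, chr5:92496025-92496063, minus strand: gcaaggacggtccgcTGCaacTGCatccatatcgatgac
Cxcl12, CXC, chr6:117148454-117148492, plus strand: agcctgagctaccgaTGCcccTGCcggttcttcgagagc
Cxcl16, CXC, chr11:70349938-70349976, minus strand: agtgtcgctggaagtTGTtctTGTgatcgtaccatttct

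By position, the CC genes Ccl5, Ccl6, Ccl3 and Ccl4 lie together within 138.9 kb of chromosome 11, from 83416602 to 83555509 of GRCm39. Ccl6 (ENSMUSG00000018927.4) occupies 83478708 to 83483913 there, on the minus strand. Ccl2, from 81926397 to 81928279, and Cxcl16, from 70344517 to 70352620, lie elsewhere on chromosome 11. Cxcl9 and Cxcl10 are neighbours within 27.5 kb of chromosome 5, where Cxcl10 (ENSMUSG00000034855.14) occupies 92494497 to 92496748, and Cxcl1 is on the same chromosome, from 91039094 to 91040974. Cxcl12 (ENSMUSG00000061353.12) occupies 117144945 to 117158328 of chromosome 6.

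The promoters of Ccl6, Cxcl10, Cxcl9 and Cxcl12 are printed because these members had the lowest p for a genotype difference in females, where Ccl6 and Cxcl10 were called and Cxcl9 and Cxcl12 were not. Each is the RefSeq window of 250 bases before to 50 after the start site (table build GRCm38.p6), which was found again as an exact match in GRCm39, whose coordinates are given. The table held 6 of the 10 members, the other 2 with a promoter being Ccl3 and Cxcl1. Capitals mark matches on either strand to the kB motif, the site of NF-kB, and to the interferon response core GAAANNGAA.
Ccl6 promoter, chr11:83483864-83484163, minus strand: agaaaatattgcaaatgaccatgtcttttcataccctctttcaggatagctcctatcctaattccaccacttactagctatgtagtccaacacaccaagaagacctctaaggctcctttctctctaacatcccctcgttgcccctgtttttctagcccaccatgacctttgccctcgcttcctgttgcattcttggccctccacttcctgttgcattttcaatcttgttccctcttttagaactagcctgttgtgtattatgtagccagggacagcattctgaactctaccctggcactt
Cxcl10 promoter, chr5:92496699-92496998, minus strand: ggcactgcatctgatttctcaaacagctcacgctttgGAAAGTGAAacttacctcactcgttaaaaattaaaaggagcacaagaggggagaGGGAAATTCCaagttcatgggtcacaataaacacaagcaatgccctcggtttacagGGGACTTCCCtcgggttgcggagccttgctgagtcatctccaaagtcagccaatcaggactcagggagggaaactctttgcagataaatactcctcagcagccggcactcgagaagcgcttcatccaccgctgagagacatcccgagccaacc
Cxcl9 promoter, chr5:92475889-92476188, minus strand: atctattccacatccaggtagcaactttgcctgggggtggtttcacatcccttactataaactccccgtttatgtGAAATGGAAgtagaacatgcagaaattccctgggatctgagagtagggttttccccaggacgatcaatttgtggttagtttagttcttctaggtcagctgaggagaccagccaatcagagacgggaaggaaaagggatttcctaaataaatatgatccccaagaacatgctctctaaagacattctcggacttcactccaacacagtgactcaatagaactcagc
Cxcl12 promoter, chr6:117145246-117145545, plus strand: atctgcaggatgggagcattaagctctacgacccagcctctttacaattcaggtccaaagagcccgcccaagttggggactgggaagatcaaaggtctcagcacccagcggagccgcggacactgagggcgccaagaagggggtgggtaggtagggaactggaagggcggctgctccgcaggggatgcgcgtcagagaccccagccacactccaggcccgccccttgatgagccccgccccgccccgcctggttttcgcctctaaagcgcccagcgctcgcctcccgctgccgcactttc

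Of the 6 promoters, Cxcl10 held the most matches, with kB at -159 to -150 and at -103 to -94 from the start site and the interferon core at -213 to -205. Cxcl9 held the interferon core at -175 to -167, Cxcl1 held overlapping kB matches on opposite strands from -71 to -61, and Ccl3 held an interferon core on the minus strand at -39 to -31. The AP-1 motif TGANTCA, which does not overlap the others here, matched in Cxcl10 and Cxcl9. None of these motifs, nor TTCNNNGAA (the GAS element of interferon-induced genes), had these letters in the Ccl6 and Cxcl12 windows. The Cxcl12 window, from 117145246, lies wholly inside the annotated gene, which starts at 117144945. Bases before that annotated start of Cxcl12 were not searched. Of 32851 promoters in the table, 4.51% held the kB motif, 8.56% the interferon core, 8.3% the GAS element and 7.81% the AP-1 motif. These are descriptions of letters in a window, not of bound sites.

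**Figure D1:**
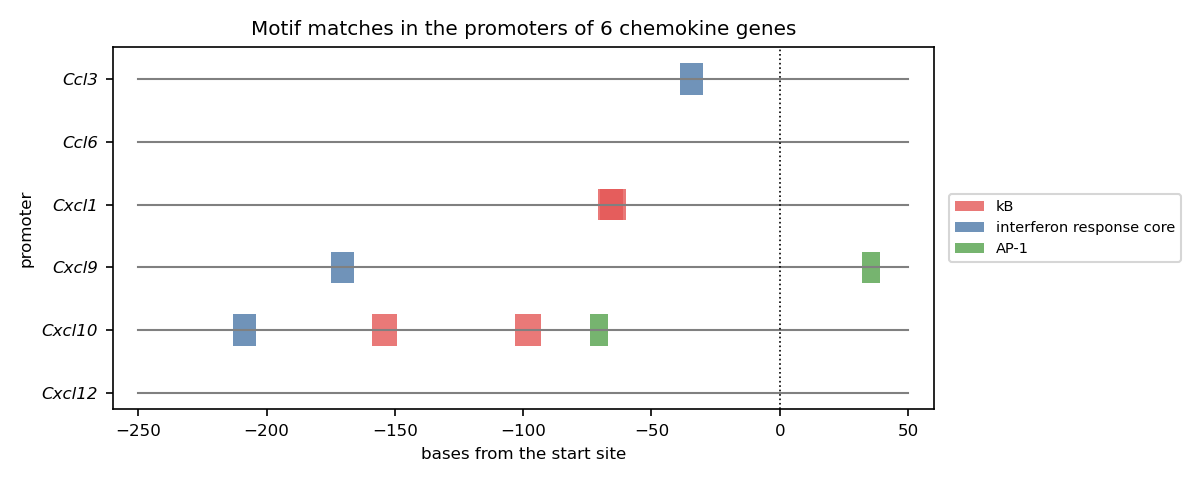
Positions of motif matches in the promoters of 6 chemokine genes, in bases from the start site (dotted line), with kB in red, the interferon response core in blue and AP-1 in green. Cxcl10 holds all 3 kinds, whereas the lines of Ccl6 and Cxcl12 are empty. The Cxcl12 window lies inside the annotated gene and does not cover bases before the annotated gene start.

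The levels of the members were compared with each other in TPM, the deposited value that accounts for transcript length. Cxcl12 was by far the most abundant, at 35.4 to 75.8 TPM in Het livers (median 54.3) and 14.1 to 52.4 TPM in KO livers (median 31.7). In KO_F_108, where it was lowest, Ccl6 (20.5 TPM) and Cxcl1 (15.4 TPM) exceeded it, and in each of the other livers it was the highest member. In Het livers, Cxcl1 (median 4.33 TPM), Cxcl9 (2.17), Cxcl16 (2.17), Ccl6 (2.05) and Cxcl10 (1.31) followed, with ranges that overlapped from each to the next. Ccl5 (0.544), Ccl2 (0.384), Ccl4 (0.0806) and Ccl3 (0) were at the bottom of the order. In KO livers the order ran Cxcl12, Ccl6 (8.39), Cxcl1 (7.15), Cxcl16 (2.72), Cxcl9 (1.25), Cxcl10 (0.752), Ccl5 (0.678), Ccl2 (0.672), Ccl4 (0.177) and Ccl3 (0.174). Ccl6 thus went from the fifth place among Het livers to the second among KO livers, although its range there overlapped that of Cxcl1.

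**Figure D2:**
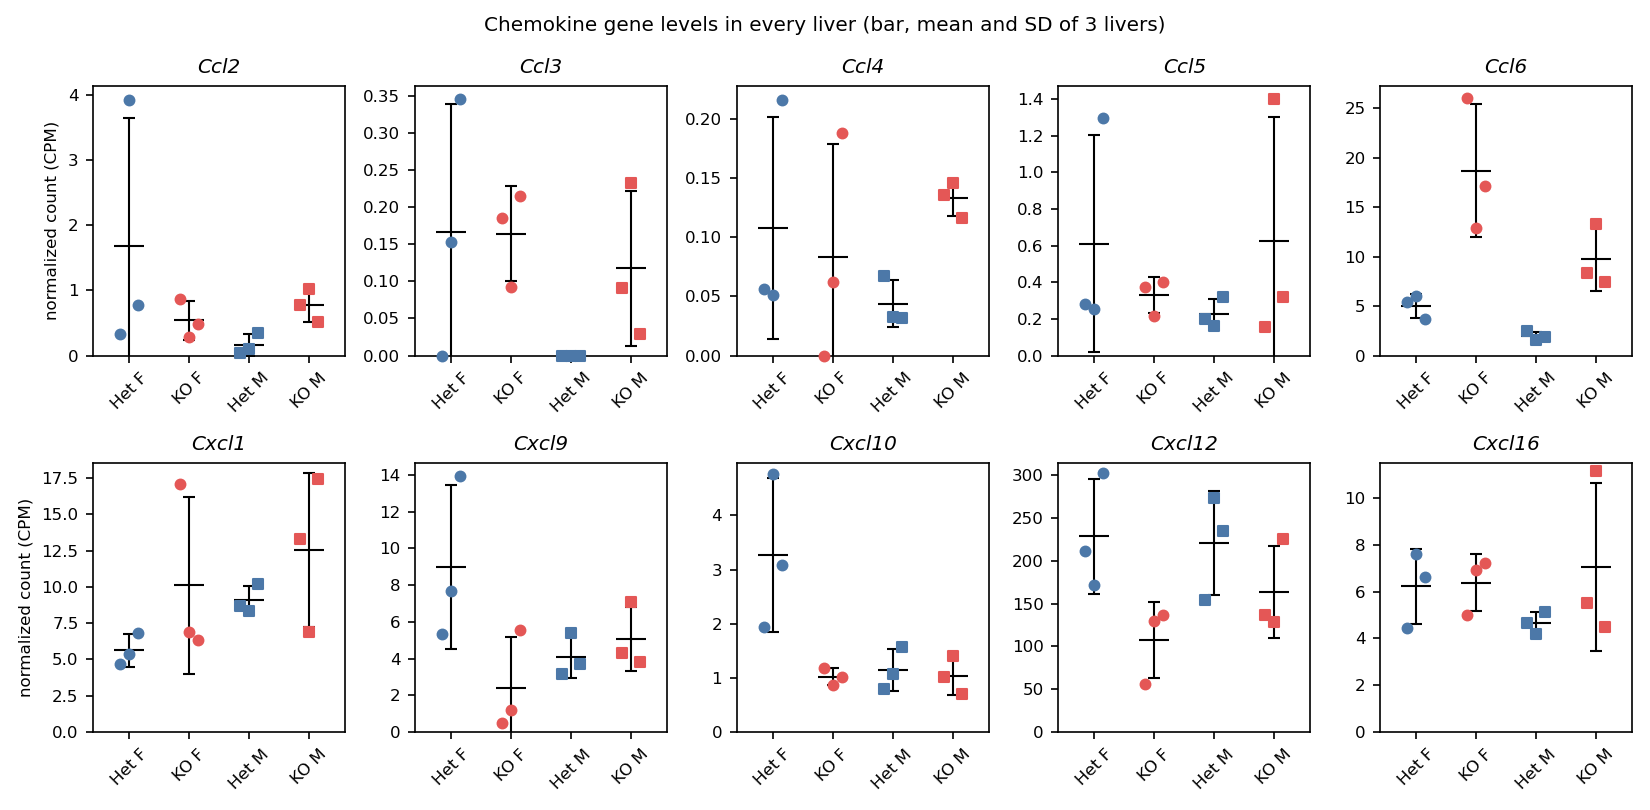
Normalized count (CPM, linear axes from 0) of each of the 10 chemokine genes in every liver, in Het (blue) and KO (red) females (circles) and males (squares), with the mean and SD of the 3 livers of each group, bars being cut at 0. Ccl6 is higher in all 6 KO livers than in all 6 Het livers, and Cxcl10 is lower in the 3 KO females than in the 3 Het females.

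The main comparison asked which genes differed in the liver between KO and Het mice. Over both sexes, 1 of the 10 members rose (Ccl6) and 1 fell (Cxcl10) in the quasi-likelihood test of edgeR, with p adjusted by Benjamini-Hochberg over all 19350 genes. Of all genes tested, 12.2% were called higher and 10.2% lower, so the members' share was close to the background. The median log2 fold change was 0.26 over the members and 0.02 over all genes. In females Ccl6 rose and Cxcl10 fell, beside 5.94% of genes higher and 5.1% lower, and in males only Ccl6 was called of the 10, beside 4.47% higher and 2.98% lower. The members' median log2 fold change was -0.53 in females and 0.76 in males, with 3 of 10 estimates above 0 in females and 8 of 10 in males. In bulk liver, fewer cells of a type and less RNA per cell cannot be told apart.

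**Figure D3:**
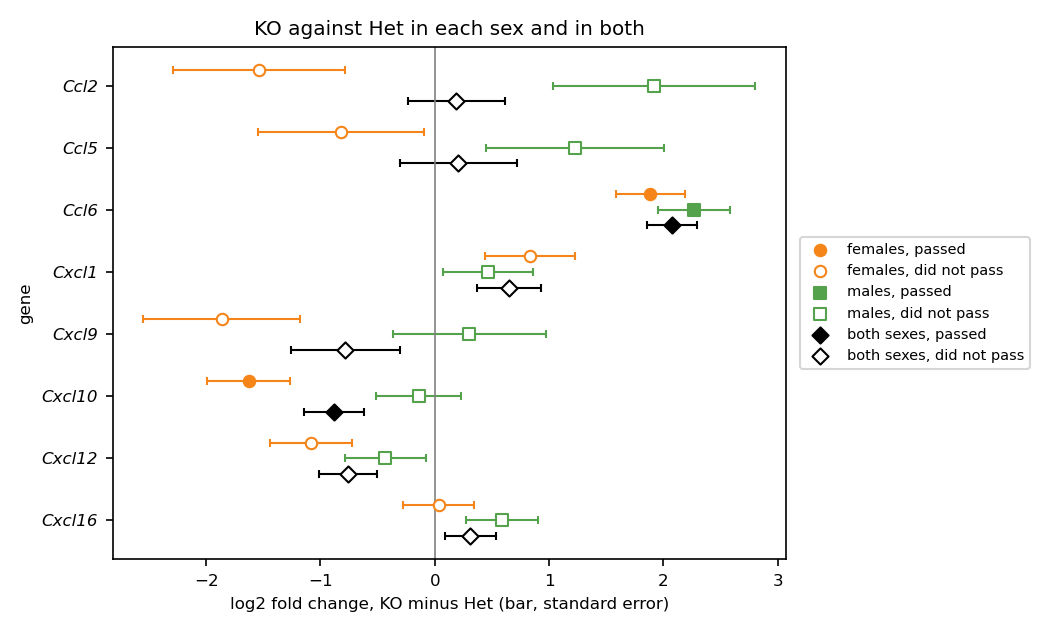
Log2 fold change of KO minus Het with its approximate standard error for 8 chemokine genes, in females (orange), males (green) and both sexes (black), filled where the adjusted p was under 0.05. Ccl6 lies near 2 in all 3 comparisons, and Cxcl10 is filled in females and in both sexes but not in males. Ccl3 and Ccl4 had too few reads to be drawn.

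Ccl6 showed the clearest change of the members. It stood at 5.38, 5.99 and 3.69 CPM in the Het females and at 26.0, 12.9 and 17.2 CPM in the KO females. In males it was at 2.47, 1.56 and 1.89 CPM in Het livers and at 8.36, 13.3 and 7.49 CPM in KO livers. Every KO liver lay above every Het liver, which was the case for no other member over both sexes and for 4.71% of all genes (a further 4.64% lay wholly below). The log2 fold change was 2.08 (SE 0.220, adjusted p = 1.39e-04), a 4.22-fold rise, with 1.89 in females (SE 0.304, adjusted p = 0.00511) and 2.27 in males (SE 0.317, adjusted p = 0.00192). By p it ranked 89 of the 19350 genes. The calls over both sexes, in females and in males held under all 25 alternatives, and the difference between the sexes in this change was 0.38 (SE 0.409, adjusted p = 0.787).

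Reads of Ccl6 rested on 48 to 235 counts per Het liver and 258 to 840 per KO liver. The long noncoding gene E230016K23Rik on the opposite strand was at no more than 0.0310 CPM in any liver. The genes with the most similar pattern across the 12 livers, by Pearson correlation of log2 CPM, were Zfp202 (0.965), Pdlim1 (0.961) and Cd33 (0.960), the last encoding a lectin of myeloid cells. These are descriptions, since the 12 livers also share the split into genotypes. Ccr1, through which Ccl6 acts, had between 0.0651 and 0.332 CPM in Het livers (median 0.196) and between 0.402 and 0.816 CPM in KO livers (median 0.641). The genotypes did not overlap for this receptor either, and its log2 fold change was 1.46 (SE 0.283, adjusted p = 0.00448), with 1.23 in females (adjusted p = 0.0592) and 1.70 in males (adjusted p = 0.0300).

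Several myeloid markers rose as well, where over both sexes 12.2% of all genes tested were called higher and 10.2% lower. Of 11 Kupffer cell genes, the resident macrophages of the liver, 6 rose and none fell over both sexes, among them Marco, a scavenger receptor (2.98, SE 0.571), Vsig4, a complement receptor (0.87, SE 0.199), and C1qb and C1qc, which encode complement C1q chains (0.87 and 0.84 on the log2 scale). Their summed level was 141 to 381 CPM in Het livers and 205 to 586 CPM in KO livers, so that the genotypes overlapped, and no gene of the list was at 0. Of 12 monocyte and recruited macrophage genes, 8 rose and none fell, with the lowest p for Lpl (4.16), Chil3, Gpnmb (3.74) and Itgam (1.79). Chil3 was at 0 to 0.179 CPM in Het livers and 1.31 to 3.80 CPM in KO livers, and the summed level of this list, 1999 to 2752 CPM in Het and 2028 to 2582 CPM in KO livers, was mostly Fn1, which hepatocytes also express. In females alone no Kupffer cell gene was called. The part of these cells in the Ccl6 result was not tested.

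**Figure D4:**
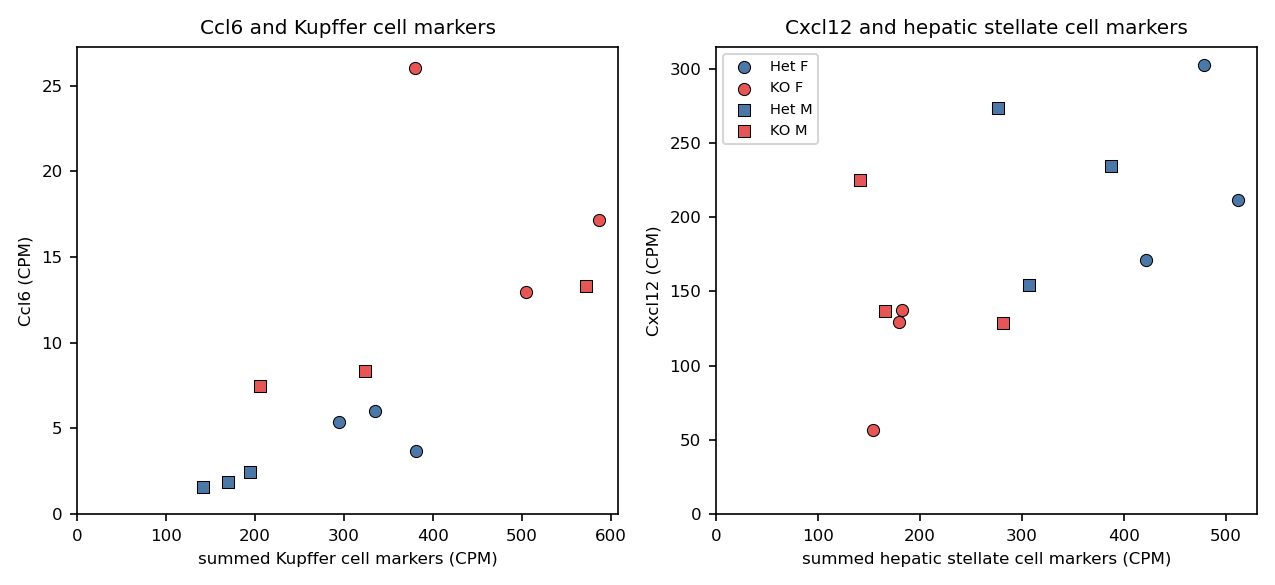
Left, Ccl6 against the summed level of 11 Kupffer cell markers in each liver. Right, Cxcl12 against the summed level of 10 hepatic stellate cell markers, both in CPM on linear axes from 0 for Het (blue) and KO (red) females (circles) and males (squares). The Kupffer cell sums of the genotypes overlap, from 141 to 381 CPM in Het and 205 to 586 CPM in KO livers.

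Cxcl10, the interferon-induced ligand of Cxcr3, was lower in KO females. Its level was 1.94, 4.77 and 3.09 CPM in Het females and 1.18, 0.867 and 1.02 CPM in KO females, without overlap, and the log2 fold change was -1.63 (SE 0.361, adjusted p = 0.0187). In males it was 0.801, 1.07 and 1.57 CPM in Het livers and 1.02, 1.40 and 0.696 CPM in KO livers. The male ranges overlapped, with a log2 fold change of -0.14 (SE 0.371, adjusted p = 0.861). Over both sexes the change was -0.88 (SE 0.261, adjusted p = 0.0304). Het females were the high group, while KO females were at the level of the males of either genotype. The male minus female difference in the change was 1.49 (SE 0.522), with an adjusted p of 0.461, so a difference between the sexes was not shown.

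The Cxcl10 result was the less firm of the calls. Over both sexes it was called under 14 of 25 alternatives, with adjusted p from 0.00909 to 0.0784. The call was lost without Het_F_115, Het_M_125, Het_M_137, KO_F_112, KO_M_118 or KO_M_136 (0.0524 to 0.0784), with length-scaled counts (0.0554), scaled counts (0.0585) and no interaction term (0.0642), and with limma on log2(TPM + 1) (0.0676) or log2(TPM + 0.1) (0.0718). In females it was lost with females alone in the fit (adjusted p = 0.0592) and without Het_F_115 (adjusted p = 0.0536) or KO_F_112 (adjusted p = 0.0590), with 6.82e-04 to 0.0592 over all alternatives. Cxcl10 lies inside Art3, a gene on the opposite strand that was at 0.712 to 1.61 CPM and fell by 0.55 on the log2 scale (adjusted p = 0.0429). The library kit keeps the strand, but the strand setting used in counting is not given in the sources used here, so reads of both could be mixed. The genes most alike in pattern to Cxcl10 were Trarg1 (Pearson correlation 0.912 over 12 livers), Dcbld1 (0.910) and Nfe2l2 (0.900, a transcription factor of the oxidative stress response).

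Cxcl9, the neighbour of Cxcl10 on chromosome 5 and a ligand of the same receptor, moved in the same direction in females without passing the test. Het females had 5.33, 7.68 and 13.96 CPM and KO females 0.496, 1.18 and 5.55 CPM, of which the highest, in KO_F_123, overlapped the Het range. The log2 fold change in females was -1.86 (SE 0.685, adjusted p = 0.103). Without KO_F_123 it was -3.35, with an adjusted p of 0.00413 (0.00413 to 0.246 over all alternatives). In males Cxcl9 was at 3.17, 5.37 and 3.71 CPM in Het livers and 4.30, 7.05 and 3.80 CPM in KO livers, with a log2 fold change of 0.30 (SE 0.668, adjusted p = 0.83).

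Among genes of interferon signaling, 15 of 17 were tested, 1 rose and none fell over both sexes, beside 12.2% of all genes higher and 10.2% lower. The riser was Ifngr1, a chain of the interferon gamma receptor (0.39, SE 0.111, adjusted p = 0.0263). Ifng itself, encoding interferon gamma, and Ifnb1 had at most 1 count in any liver.

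Cxcr3, the receptor of Cxcl9 and Cxcl10 found on activated T cells and NK cells, was at 0.200 to 0.459 CPM in Het and 0.0870 to 0.291 CPM in KO livers, with a log2 fold change of -0.81 that did not pass (adjusted p = 0.0593). Of 13 T and NK cell markers, 12 were tested, Prf1, a pore-forming protein of cytotoxic cells, rose (1.12, adjusted p = 0.0109) and Ncr1, an NK cell receptor, fell (-0.70, adjusted p = 0.0465). In males Prf1 was at 0.0320 to 0.1001 CPM in Het and 0.430 to 0.609 CPM in KO livers (2.38, adjusted p = 0.00513), while its female ranges overlapped (-0.15, adjusted p = 0.825). Ncr1 was at 0.151 to 0.282 CPM in Het females and 0 to 0.0310 CPM in KO females (adjusted p = 0.0135). No female fold is given for it, since the KO females had at most 1 count each. The male estimate of Ncr1 was 0.32 (adjusted p = 0.646). The difference between the sexes in these changes had an adjusted p of 0.1502 for Prf1 and 0.223 for Ncr1, and both genes rested on at most 21 counts per liver. Over both sexes, 12.2% of all genes tested were called higher and 10.2% lower, so the counts for these markers were near the background. The summed level of the T and NK cell list was 2.54 to 6.76 CPM in Het and 1.61 to 6.62 CPM in KO livers. In females it was 3.18 to 6.76 CPM in Het and 1.61 to 4.05 CPM in KO livers, and its part in the Cxcl9 and Cxcl10 values was not tested.

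Cxcl12, which retains leukocytes and stem cells in tissues, had a lower estimate in KO livers but missed the threshold. It was at 211, 171 and 302 CPM in Het females and 56.6, 130 and 137.1 CPM in KO females, and at 154, 274 and 234 CPM in Het males and 136.9, 129 and 225 CPM in KO males. The female groups did not overlap, the male groups did. Over both sexes the log2 fold change was -0.76 (SE 0.253, adjusted p = 0.0517), with -1.08 in females (SE 0.359, adjusted p = 0.0742) and -0.43 in males (SE 0.356, adjusted p = 0.503). It passed under 11 of the 25 alternatives for both sexes, DESeq2 among them (adjusted p = 0.0171, with 0.0171 to 0.118 over all 25), and the sign was the same in all 25.

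Some stellate and endothelial cell markers were lower in KO livers, where over both sexes 12.2% of all genes were called higher and 10.2% lower. Of 10 hepatic stellate cell genes, 4 fell and none rose, namely Reln (-1.75, SE 0.192), Lrat, which stores vitamin A as esters (-1.89, SE 0.212), Ecm1 (-1.14, SE 0.156) and Colec11 (-1.42, SE 0.203). Their summed level was 422 to 512 CPM in Het females, 154 to 182 CPM in KO females, 276 to 388 CPM in Het males and 142 to 281 CPM in KO males. Of 9 sinusoidal endothelial cell genes 5 fell and none rose, among them Fcgr2b (-1.23), Kdr (-0.99), Clec4g (-0.83) and Oit3 (-0.91), with a summed level of 268 to 517 CPM in Het and 203 to 352 CPM in KO livers. No gene of either list was at 0, and in males alone no endothelial gene was called. Across the KO females the stellate sum and Cxcl12 ran in the same order, and across the KO males in the opposite order. KO_M_136 had the lowest stellate sum (142 CPM) but the highest Cxcl12 of the KO livers (225 CPM), and KO_M_122 had 281 and 129 CPM. The part of these cells in the Cxcl12 values was not tested.

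Of the receptors of Cxcl12, Cxcr4 rose, from 0.260 to 1.21 CPM in Het livers (median 0.447) to 0.377 to 2.65 CPM in KO livers (median 1.41). The ranges overlapped through KO_M_136 and Het_F_111, and the log2 fold change was 1.41 (SE 0.411, adjusted p = 0.0290). The scavenging receptor Ackr3 had a log2 fold change of 0.18 (adjusted p = 0.650). Dpp4, a peptidase that trims several chemokines including Cxcl12 and Cxcl10, fell without overlap, from 103 to 134 CPM in Het to 49.1 to 80.4 CPM in KO livers (-0.64, SE 0.116, adjusted p = 0.00306). Adam10 and Adam17, which shed Cxcl16 from the membrane, had log2 fold changes of 0.15 (adjusted p = 0.232) and -0.13 (adjusted p = 0.387).

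Cxcl1 was at 4.68, 5.36 and 6.85 CPM in Het females and 17.1, 6.87 and 6.33 CPM in KO females. In males it was at 8.71, 8.33 and 10.2 CPM in Het and 13.3, 6.88 and 17.5 CPM in KO livers. The KO values split into 3 high livers (KO_F_108, KO_M_118 and KO_M_136) and 3 within the Het range, and the log2 fold change of 0.65 (SE 0.277) did not pass (adjusted p = 0.114). Without KO_F_108 it was 0.33 over both sexes (adjusted p = 0.288) and 0.21 in females, where it was 0.83 with all livers, whereas without KO_M_122 it was 0.80 over both sexes (adjusted p = 0.0465, with 0.0465 to 0.288 over all alternatives). Its receptor Cxcr2 had a log2 fold change of 0.23 (adjusted p = 0.639). Of 12 neutrophil genes 6 were tested and 3 rose, Mmp9 (1.57), S100a8 (1.17) and Mmp8 (0.998), beside 12.2% of all genes called higher. Mmp8 rested on 0 to 10 counts in Het and 3 to 10 in KO livers, so its fold is uncertain. The defining marker Ly6g had at most 1 count in any liver.

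Cxcl16 ranged from 4.196 to 7.60 CPM in Het livers (median 4.89) and from 4.50 to 11.1 CPM in KO livers, the highest being KO_M_122. Its log2 fold change was 0.31 (SE 0.221, adjusted p = 0.335). It overlaps Med11 and Zmynd15 on the opposite strand, of which Zmynd15 fell by 0.73 on the log2 scale (adjusted p = 0.0307). The receptor Cxcr6, of T and NK cells that stay in the liver, was at 0.733, 0.714 and 0.929 CPM in Het females and 0.186, 0.0619 and 0.295 CPM in KO females, with no overlap. In males it was at 0.200, 0.293 and 0.480 CPM in Het and 0.249, 0.350 and 0.261 CPM in KO livers. Cxcr6 fell over both sexes (-0.99, SE 0.278, adjusted p = 0.0251) and in females (-1.82, adjusted p = 0.0146), and the male change was -0.16 (adjusted p = 0.844). The male minus female difference in the change was 1.66 (SE 0.559, adjusted p = 0.441), so a difference between the sexes was not shown. Counts of Cxcr6 were 2 to 11 in KO females and 6 to 15 in males.

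Ccl2, the monocyte attractant, had opposite estimates in the sexes. It was at 0.338, 3.93 and 0.778 CPM in Het females and 0.868, 0.279 and 0.483 CPM in KO females, the high value being that of Het_F_115. In males it was at 0.0334, 0.0976 and 0.352 CPM in Het and 0.770, 1.02 and 0.522 CPM in KO livers, without overlap. The log2 fold change was -1.54 in females (SE 0.754, adjusted p = 0.202) and 1.92 in males (SE 0.886, adjusted p = 0.214), and the Het male values rested on 1 to 11 counts. Without Het_F_115 the female change was -0.07. Its receptor Ccr2 had a log2 fold change of -0.39 (adjusted p = 0.420). By sex, the Ccr2 estimate was -1.21 in females (adjusted p = 0.117) and 0.43 in males (adjusted p = 0.615). The male minus female difference for Ccr2 was 1.64 (adjusted p = 0.492), so a difference between the sexes was not shown.

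Ccl3, Ccl4 and Ccl5 were low in all groups. Ccl5, a product of T cells, NK cells and macrophages, had 10, 10 and 60 counts in Het females, 12, 7 and 15 in KO females, 6, 5 and 10 in Het males and 7, 48 and 11 in KO males. A single liver stood high in each of 2 groups, Het_F_126 at 1.30 CPM and KO_M_122 at 1.40 CPM, with a log2 fold change of 0.20 (SE 0.511, adjusted p = 0.810). Ccl3 had 0, 6 and 16 counts in Het females, 6, 3 and 8 in KO females and 4, 8 and 1 in KO males, and 0 in each of the 3 Het males. Ccl4 had 2, 2 and 10 counts in Het females, 0, 2 and 7 in KO females, 2, 1 and 1 in Het males and 6, 5 and 4 in KO males. At this depth no fold change is given for Ccl3 and Ccl4, neither of which was called in any of the 5 comparisons. Ccr1, given above, is a receptor of Ccl3 and Ccl5, and Ccr3, another receptor of Ccl5, had at most 7 counts and was not tested.

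**Figure D5:**
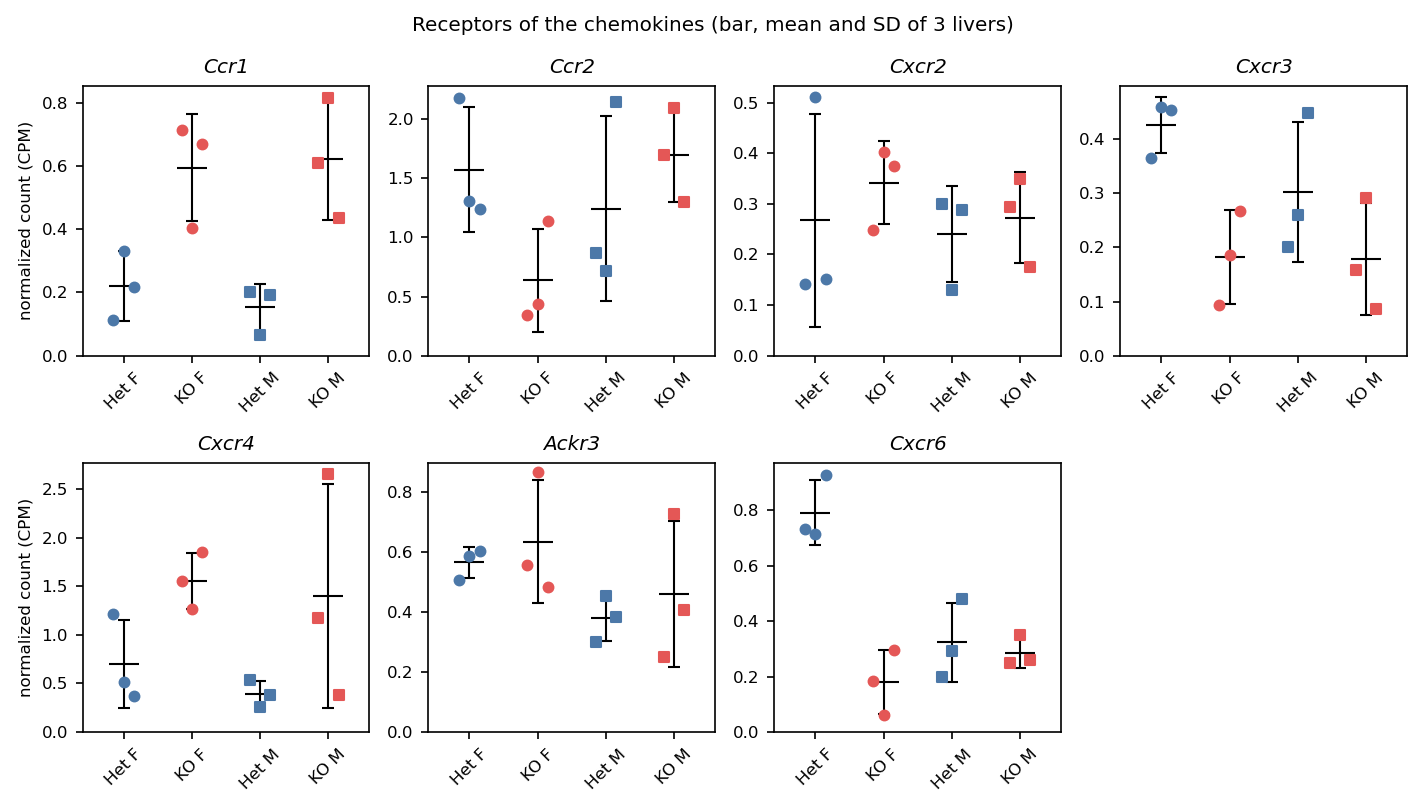
Normalized count (CPM, linear axes from 0) of 7 receptors of the chemokine genes in every liver, in Het (blue) and KO (red) females (circles) and males (squares), with the mean and SD of 3 livers, bars being cut at 0. Ccr1 is higher in all KO livers, and Cxcr6 is lower in KO females than in Het females.

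Within a sex, groups of 3 did not overlap for 3 members in females (Ccl6 above, Cxcl10 and Cxcl12 below) and for 4 in males (Ccl2, Ccl3, Ccl4 and Ccl6, all above). For all genes tested this was so for 30.4% in females and 32.2% in males, in either direction, so these counts were near the background. The genotype by sex interaction was called for none of the 10 members, beside 0.0465% of all genes, and for none with DESeq2 or with limma on TPM. Of the members, 3 had an unadjusted p under 0.05 there, Ccl2 (3.46), Cxcl9 (2.17) and Cxcl10 (1.49). All 3 had a higher estimate in males. By that p, Cxcl9 ranked only 1635 of the 19350 genes, so many other genes also had an unadjusted p under 0.05. The 0.0465% refers to adjusted p and is no background for these 3. Without KO_F_123, which had the highest Cxcl9 level of the KO females, the Cxcl9 interaction was called (3.65, adjusted p = 0.0416, with 0.0416 to 0.796 over all alternatives). Between the sexes, averaged over the genotypes, Ccl6 was lower in males (-1.13, SE 0.215, adjusted p = 0.0292), beside 0.506% of genes lower and 0.512% higher in males. That Ccl6 call was lost without any 1 of 7 livers (Het_F_111, Het_F_115, Het_M_125, Het_M_137, KO_F_108, KO_M_118 and KO_M_136).

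The other chemokine ligands gave a wider view of the family. Of 27 listed genes, 14 were tested, 3 rose and 4 fell, beside 12.2% of all genes higher and 10.2% lower. The median log2 fold change of the tested ligands was 0.12, and 4 of the listed genes were at 0 in every liver. Ccl9, a myeloid CC ligand related to Ccl6, was at 29.6 to 46.1 CPM in Het and 42.5 to 87.2 CPM in KO livers (0.91, SE 0.143, adjusted p = 0.00141). Pf4, a platelet and macrophage CXC ligand, rose from 0.167 to 0.367 CPM in Het to 0.609 to 1.24 CPM in KO livers (1.67, SE 0.224, adjusted p = 5.92e-04). Ccl21a, a homing ligand of lymph vessels, had 6.51 to 33.0 estimated counts in Het livers and at most 2.33 in KO livers (adjusted p = 1.45e-04), and no fold is given since the KO livers are under the floor of 3 counts. Ccl27a fell from a median of 4.21 to 2.28 CPM (-1.04, SE 0.171, adjusted p = 0.00180). Ccl21a and Ccl27a have near-identical copies in the mouse genome, between which reads may have been split, so both values are uncertain.

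Of 18 chemokine receptors, 12 were tested, Ccr1 and Cxcr4 rose and Cxcr6 fell. Of 6 atypical receptors, which bind chemokines without G protein signaling, 3 fell and none rose, namely Ackr1 (-1.10), Gpr182 (-0.84) and Ackr4 (-1.35). Among 16 genes of signaling downstream of the receptors 3 rose and none fell, Grk3, a receptor kinase (0.90), Vav1 (0.82) and Elmo1 (0.62), the last 2 activators of Rac. Of 24 NF-kB pathway genes 4 rose and 2 fell, which was near the background. For this list and those above, the share of all genes tested was 12.2% higher and 10.2% lower. Tnfrsf1a, a TNF receptor (0.78), Il1r1, the IL-1 receptor (1.27), and Nfkbiz (0.60) rose, and Chuk, an IkB kinase subunit, fell (-0.59). Tnf and Il1b, whose products induce several of these ligands, had log2 fold changes of 0.22 (adjusted p = 0.674) and 0.40 (adjusted p = 0.511).

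Markers of hepatocytes, the main cells of liver tissue, summed to 85091 to 108384 CPM in Het livers and 108209 to 178372 CPM in KO livers. The genotypes overlapped only through KO_M_118, at 108209 CPM. Of 10 hepatocyte genes 1 rose (Trf) and 2 fell (Ttr and Cyp2e1). The part of hepatocytes in the chemokine values was not tested. Of the remaining marker lists, none of 6 B and plasma cell genes was called. Among 5 dendritic cell genes 1 fell (Siglech, -1.47), and among 6 cholangiocyte genes 1 rose (Cldn4, 1.61). Siglech rested on 2 to 19 counts in Het and 0 to 7 in KO livers. Cldn4 rested on 1 to 7 counts in Het and 6 to 26 in KO livers, so both folds are uncertain. The B and plasma cell list summed to 4.34 to 41.2 CPM in Het livers and 4.50 to 24.2 CPM in KO livers. Beside these list counts, 12.2% of all genes tested were called higher and 10.2% lower.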

How the data were processed

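The authors sequenced stranded paired-end libraries, ran nf-core/rnaseq with STAR 2.7.9a on GRCm39 and Salmon 1.10.1 on GENCODE M34 genes, and deposited estimated counts per gene, the same scaled or length-scaled, and TPM. Here the estimated counts were rounded after a filter (at least 5 reads, scaled to the median library, in at least 3 livers), since 12.0% of the values are not whole. They were fitted with edgeR 4.0.16 in R 4.3.3 (TMM scaling, quasi-likelihood test, robust, prior count 2) to the 4 group means in 1 model, after the methods of the study, and genes with an adjusted p under 0.05 were called. The SE given with a log2 fold change is the size of the estimate divided by the square root of the F of its test. It is therefore approximate, and for genes with few counts it can be too small. The fit is not identical to that of the study. It called 4330 of 19350 genes between the genotypes, more than the study reports from slightly more tested genes. TPM and the scaled counts served as alternatives, with DESeq2 1.42.0 and limma 3.58.1. Each liver is from a mouse with its own number in the labels. The members and gene lists were chosen with earlier results of these data known, so they give no independent support. Named genes are the members, most of their receptors, up to 4 called genes of smallest p per list (fewer where fewer were called), the 3 most similar genes for each called member, Xpa and Ercc8, with genes that overlap a member. Ifng, Ifnb1, Tnf, Il1b, Adam10, Adam17, Ly6g and Fn1 were named after their values were seen. Coordinates come from GENCODE M39 on GRCm39. On simulated data made from these livers, the comparison of both sexes recovered 65.5% of 200 genes changed by 1 on the log2 scale and 98% of 200 changed by 2, among 19350 genes. The changed genes were drawn above a minimum mean level that Ccl3, Ccl4 and Ccl5 did not reach, so these shares do not apply to them. The real fit called 4330 genes, far more than were changed in the simulation, so the shares are only a rough guide. Counting intervals and limits cover counting error only. Some items of the lists are not reported here.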

Additional observations from a re-analysis of the deposited data

Results flagged for a closer look

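The spread over the 6 livers of each genotype was checked for each of the 10 chemokine genes, and 4 of these 20 groups held a liver far from the others. For independent groups of normal values, chance gives about 1 in 20. Here the values were CPM pooled over the sexes, some of them on few counts, and Ccl4 and Ccl5 were flagged through the same Het liver. That rate is therefore only a rough guide. The statistic is the gap of that liver to its nearest neighbour as a share of the whole range, held against the 95% limit of Dixon's test for 6 livers. For Ccl2 in Het livers it was 0.809, from Het_F_115 at 3.93 CPM. For Ccl5 it was 0.861 in Het livers, from Het_F_126 at 1.30 CPM, and 0.804 in KO livers, from KO_M_122 at 1.40 CPM. For Ccl4 in Het livers it was 0.811, again from Het_F_126, at 0.216 CPM or 10 counts. Het_F_126 also had the highest summed level of T and NK cell markers of the Het livers, 6.76 CPM, and KO_M_122 that of the KO livers, 6.62 CPM, and the part of these cells in the Ccl5 values was not tested.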

How the results depend on the processing

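The rise of Ccl6 kept its call over both sexes, in females and in males under all alternatives, between 1.68 and 2.18 on the log2 scale over both sexes. Over both sexes 2 members were called (Ccl6 and Cxcl10). There were 3 (Cxcl12 added) with counts without rounding, library size only, no robust estimation and DESeq2, 2 with Cxcl12 in place of Cxcl10 under length-scaled counts and limma with either pseudocount, 1 under scaled counts, 1 without the interaction term, and 1 to 4 when each liver was left out (4 without KO_F_123, which adds Cxcl9 and Cxcl12). In females 2 were called, with 4 under DESeq2 and 4 under limma with either pseudocount (Cxcl9 and Cxcl12 added), 1 with females alone in the fit, and 1 to 3 with a liver left out. In males 1 was called throughout. The interaction gave 0, and 0 to 1 with a liver left out (Cxcl9 without KO_F_123). The sex contrast gave 1, and 0 to 1 with a liver left out. Among 10 members, values of 27 of 959 alternatives for single genes changed sign, and all were estimates that did not pass. For Cxcl16 in females (0.04) they were -0.0131 with length-scaled counts, -0.00479 with scaled counts, -0.049 with library size only, -0.0484 with limma on log2(TPM + 1) and -0.055 on log2(TPM + 0.1), and -0.17 to 0.19 with a liver left out. For Cxcl9 in males (0.30) they were -0.00985 with length-scaled counts, -0.00407 with scaled counts and -0.0134 with limma on log2(TPM + 0.1), and -0.00961 to 0.54 with a liver left out. For Ccl2 over both sexes (0.19) they were -0.00738 with limma on log2(TPM + 1), -0.10 without the interaction term, and -0.0515 to 0.92 with a liver left out. For Ccl3 in females they were 0.00365 and 0.22 with limma at a pseudocount of 1 and 0.1, and -0.49 to 0.70 with a liver left out. With a liver left out, the range was -0.48 to 0.11 for Ccl4 in females, -1.16 to 0.25 for Ccl5 in females, -0.40 to 0.73 for Ccl5 over both sexes, -0.39 to 0.13 for Cxcl10 in males and -0.68 to 0.25 for the interaction of Cxcl1. The cause was not tested in any of these. With library size only, all genes in females split into 813 higher and 1281 lower, beside 1149 and 986 with TMM, and the median interaction of all genes moved from 0.02 to 0.16. With 10 reads required in every sample, Ccl2, Ccl3, Ccl4 and Ccl5 were not tested, and Ccl4 was not tested without Het_F_126, KO_F_123 or KO_M_122. No paired analysis was possible because the mouse numbers are not shared between groups. Counts under about 20, as in Ccl3, Ccl4 and most Ccl5 livers, limit what can be seen.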
